A study of Mus musculus with 56 samples.

Results

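The microRNAs of the wild-type liver were compared between the postnatal stages P1 and P8. The rule took the 4 small RNA libraries of 129Sv/J mice whose labels name these stages, 2 livers of P1 and 2 of P8 (replicates A and B of each), out of 42 small RNA libraries in all. The labels name no altered allele, vector or treatment for these livers and do not give the sex of the mice, and each library was made from 1 mouse. The study elsewhere heads the same values with ages in weeks, so that the exact postnatal ages are in doubt while the order of the stages is not. For each microRNA the reads were divided by the reads of every microRNA except miR-122, because miR-122 alone took from 43.0% to 82.9% of the reads of these livers, and the result is given as RPM, the reads of a microRNA scaled to a fixed total in every liver. Of 478 microRNAs listed besides miR-122, 384 had at least 1 read in the 4 livers, and 317 reached a mean of 10 RPM over these livers and were tested.

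A microRNA is a short RNA that, loaded into an Argonaute protein, pairs through its seed (bases 2 to 8) with sites in messenger RNAs and lowers their output. Members of a family share a seed and so are thought to share most targets, although they are often made from different places in the genome. The liver around birth is a mixed tissue: blood formation, for which the fetal liver is the main site, withdraws to the bone marrow, while hepatocytes leave the cell cycle and take up adult metabolism. In bulk tissue, fewer cells of a type and less RNA per cell cannot be told apart.

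The mature sequences of the microRNAs on which the comparison turns are shown from RefSeq (build GRCm38.p6), 5′ to 3′, with the seed in capitals. The deposited values are given per hairpin and do not separate the arms, so the arm shown is the one usually taken as the main product. The first set holds abundant microRNAs of blood and vessel cells whose levels separated the stages. miR-144 (chr11:78073047-78073066, plus strand) and miR-451 (chr11:78073186-78073207, plus strand) lie 99 bases apart as hairpins, and miR-126 (chr2:26591402-26591423, plus strand) lies inside Egfl7.
miR-144-3p: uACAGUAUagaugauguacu
miR-451a: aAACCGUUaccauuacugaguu
miR-142a-3p: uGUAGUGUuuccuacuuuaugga
miR-223-3p: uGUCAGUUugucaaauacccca
miR-126a-3p: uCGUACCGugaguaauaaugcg

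The let-7 family is shown because its members share 1 seed and nearly 1 sequence, so that reads with mismatches can be placed on a neighbour. Counted from 1 at the 5′ end and set against let-7c-5p, let-7b-5p differs by A17G, let-7a-5p by G19A and let-7f-5p by G12A and G19A. The let-7a-5p sequence is the entry of let-7a-1, whereas the hairpin in the deposited values is let-7a-2.
let-7c-5p: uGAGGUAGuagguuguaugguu
let-7b-5p: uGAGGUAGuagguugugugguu
let-7a-5p: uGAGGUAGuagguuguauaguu
let-7f-5p: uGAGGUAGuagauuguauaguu
let-7d-5p: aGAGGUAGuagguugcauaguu
let-7i-5p: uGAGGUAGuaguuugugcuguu

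The next families are shown because members with the same seed stood apart from each other at P8. miR-29c-3p differs from miR-29a-3p by C10U, and miR-29b-3p by C10U, G18A, U21G and A22U. miR-497a-5p (chr11:70234730-70234751) and miR-195a-5p (chr11:70235062-70235082) come from hairpins 241 bases apart on the plus strand, and share their seed with miR-15b-5p and miR-16-5p. The hairpins of miR-15b and miR-16-2 lie inside Smc4 on chromosome 3, and miR-16-1 on chromosome 14 gives the same mature miR-16-5p, so that reads of miR-16-1 and miR-16-2 cannot be told apart.
miR-29a-3p: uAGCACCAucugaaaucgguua
miR-29c-3p: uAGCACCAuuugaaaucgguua
miR-29b-3p: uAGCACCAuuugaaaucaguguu
miR-195a-5p: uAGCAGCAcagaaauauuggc
miR-497a-5p: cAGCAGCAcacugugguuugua
miR-15b-5p: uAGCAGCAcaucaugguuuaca
miR-16-5p: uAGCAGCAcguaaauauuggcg

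The next set holds the hepatocyte microRNAs miR-802 (chr16:93369737-93369758) and miR-192 (chr19:6264857-6264877), the latter with its neighbour miR-194, then miR-137 (chr3:118433901-118433923), which was nearly without reads at P1, miR-499, which was nearly without reads at P8, and the 4 microRNAs of the imprinted cluster on chr12qF1 with the lowest log2 differences among those of at least 100 RPM, beside miR-127, miR-376a and miR-376b of the same cluster. The last 3 come from the miR-17-92 transcript, where miR-17 and miR-20a share a seed and miR-18a has another. All of these lie on the plus strand.
miR-802-5p: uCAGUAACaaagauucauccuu
miR-192-5p: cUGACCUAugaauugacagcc
miR-194-5p: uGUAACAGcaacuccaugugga
miR-137-3p: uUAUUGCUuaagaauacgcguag
miR-499-5p: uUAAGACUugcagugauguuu
miR-495-3p: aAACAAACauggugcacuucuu
miR-431-5p: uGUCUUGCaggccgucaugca
miR-543-3p: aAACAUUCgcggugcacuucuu
miR-410-3p: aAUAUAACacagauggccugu
miR-127-3p: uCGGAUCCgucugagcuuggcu
miR-376a-3p: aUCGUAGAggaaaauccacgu
miR-376b-3p: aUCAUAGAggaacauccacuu
miR-17-5p: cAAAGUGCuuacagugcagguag
miR-18a-5p: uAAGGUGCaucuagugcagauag
miR-20a-5p: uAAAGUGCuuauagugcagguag

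The P1 libraries held 414788 and 259083 listed microRNA reads and the P8 libraries 897957 and 357265. Without miR-122 there were 236516 and 73356 reads at P1 and 300737 and 61263 at P8, so that the B liver of each stage is the shallower and a microRNA without a read there may still stand at up to 40.9 RPM (P1 B) or 49.0 RPM (P8 B), the level of 3 reads. The livers of a stage differed widely: the median absolute difference between A and B over the 317 microRNAs was 1.19 on the log2 scale at P1 and 1.04 at P8. Liver A of P1 correlated more with liver A of P8 (r = 0.917 across the 317 microRNAs) than with liver B of its own stage (r = 0.845), and P1 B more with both P8 livers (0.855 and 0.853) than with P1 A. These correlations are across microRNAs of single libraries and share depth and composition.

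No microRNA was called as higher or as lower at P8 (0% each of 317, limma with Benjamini-Hochberg adjustment at 0.05), and the smallest adjusted p was 0.262, for miR-137. At an unadjusted p under 0.05 there were 12, of which miR-137, miR-195, miR-383 and miR-802 were higher (1.26%) and miR-144, miR-216b, miR-297c, miR-410, miR-466f-1, miR-466i, miR-499 and miR-669m-1 lower (2.52%). The fit took its spread from 10 wild-type livers of 5 stages (E14, E18, P1, P8 and P270), so the SEs given below rest on other ages too. The median absolute difference between A and B was 1.85 at E14, 0.37 at E18 and 1.55 at P270 on the log2 scale. An exact permutation test of 2 livers against 2 cannot give a two-sided p below 0.333, and a count of 0 calls in a design of this size does not show that levels were alike. The differences below are therefore given as values, with a statement of whether the 4 livers separate by stage.

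Both P8 livers lay above both P1 livers for 42 of the 317 microRNAs (13.2%) and below them for 86 (27.1%), while the livers overlapped for the rest. With a difference of at least 1 on the log2 scale the counts were 21 above (6.62%) and 63 below (19.9%). The median log2 difference of all tested microRNAs was -0.37, with 109 above 0 and 208 below. Both splits depended on the scaling. The counts of microRNAs whose livers separated were 56 above and 68 below with TMM factors, 58 and 66 after centring on the median microRNA, and 11 and 104 when miR-122 reads were kept in the total. The differences above and below 0 were 148 and 169 with TMM factors (median -0.09), 162 and 155 after centring (median 0.06), and 44 and 273 with miR-122 in the total (median -1.06). For 14 of the 86 lower and 1 of the 42 higher microRNAs a liver without a read has a limit of detection that reaches a value of the other stage, so that their order is not settled at this depth. The plot of the difference by level places the let-7 family on the high side and the erythroid pair far on the low side among the abundant microRNAs.

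**Figure D1:**
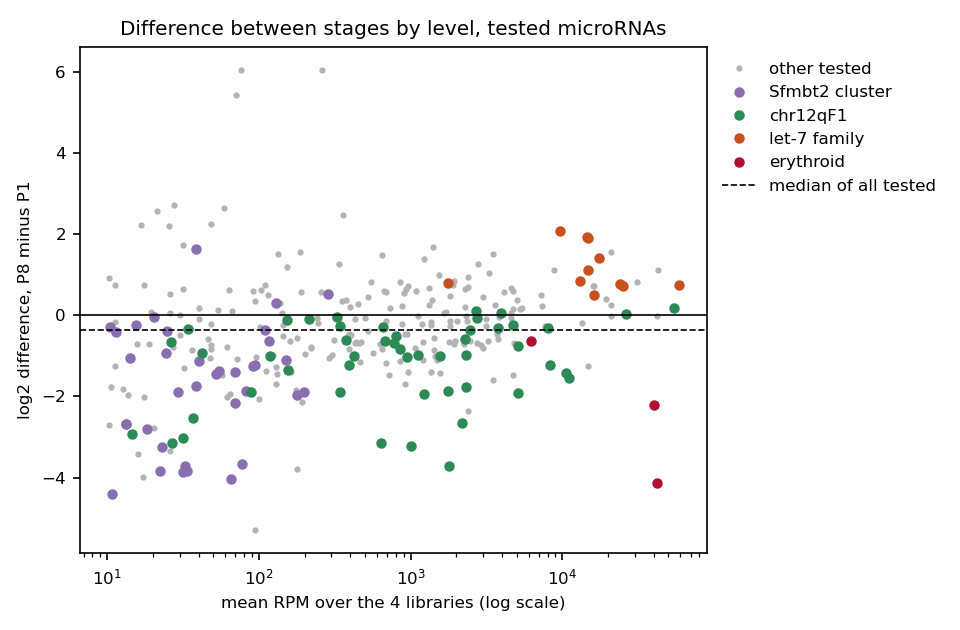
Log2 difference between P8 and P1 (limma fit, vertical axis) against the mean RPM over the 4 livers (log axis) for each of the 317 tested microRNAs, 1 point each, coloured by list. The erythroid miR-144 and miR-451 lie at -4.14 and -2.22, the let-7 points all lie above 0, and the dashed line marks the median of -0.37.

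miR-122, the hepatocyte microRNA that dominates the adult liver, made up 43.0% (95% Wilson interval 42.8 to 43.1) and 71.7% (71.5 to 71.9) of the reads of the P1 livers, and 66.5% (66.4 to 66.6) and 82.9% (82.7 to 83.0) of those of the P8 livers. Per read of another microRNA there were 0.754 and 2.53 reads of miR-122 at P1 and 1.99 and 4.83 at P8. The mean was 1.64 ± 1.26 (SD, n = 2) at P1 and 3.41 ± 2.01 (SD, n = 2) at P8, a ratio of 2.08. P1 B exceeded P8 A, so that the stages overlapped (exact two-sided permutation p = 0.667). Between livers of the same letter P8 was the higher in A and in B, but the labels give the letters no meaning. The intervals cover counting error only, since the reads carry no molecular identifiers. Without P1 B the log2 ratio was 2.18 in place of 1.05. Without P8 B it was far smaller, since P8 A alone had 1.99 against the P1 mean of 1.64.

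Of the 3 erythroid microRNAs listed, miR-144 and miR-451 were far lower in both P8 livers. miR-144, made in maturing red cells, was at 31600.4 and 128347 RPM in P1 livers A and B and at 5224 and 2497 RPM in P8 livers A and B. miR-451, cut from the same transcript, was at 92509.6 and 39288 RPM at P1 and 19861 and 8423 RPM at P8. Every P1 value exceeded every P8 value for each of them, although the A and B livers of P1 ranked in opposite order for the pair. The differences between P8 and P1 were -4.14 (SE 1.44) and -2.22 (SE 1.00) on the log2 scale. miR-486, the other member of the list, overlapped between stages, with 1772 and 14899.9 RPM at P1 and 1702 and 6431 RPM at P8. As a share of the reads other than miR-122 the 3 together took 12.6% and 18.3% of the P1 livers and 2.68% and 1.74% of the P8 livers, or 15.4% ± 4.01 (SD, n = 2) against 2.21% ± 0.667 (SD, n = 2). The sum was 6.99-fold higher at P1, and all 3 log2 differences stayed below 0 under each of the scalings above.

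**Figure D2:**
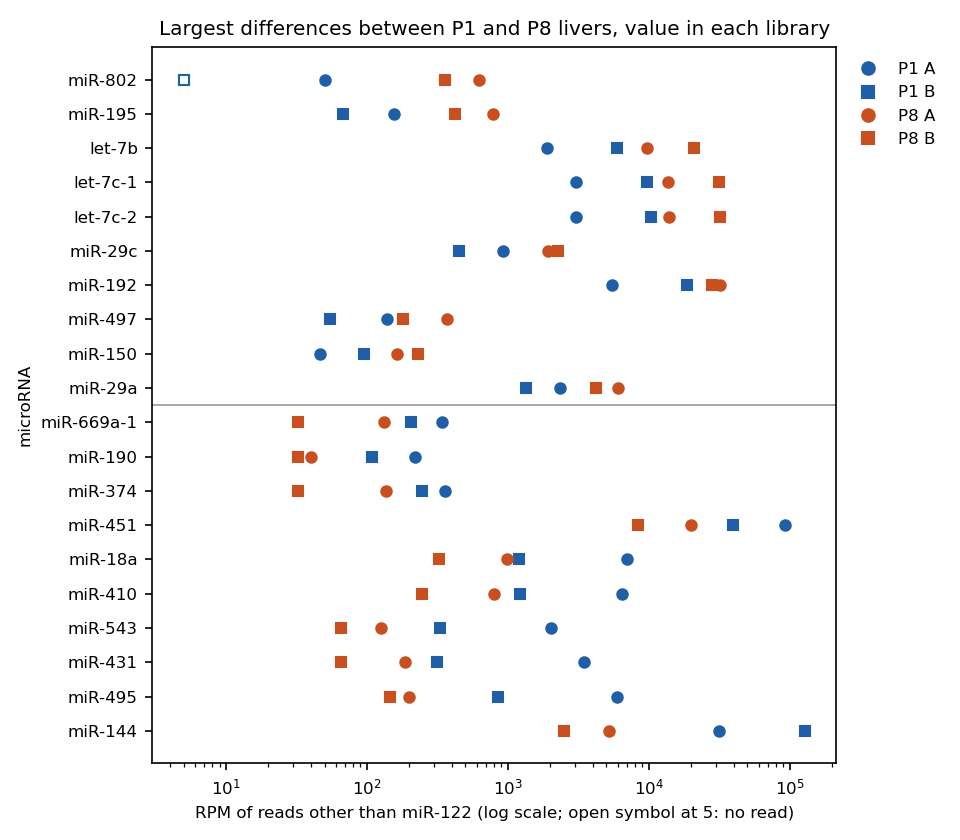
RPM (log axis) in each of the 4 livers of the 10 highest and the 10 lowest differences among microRNAs averaging 100 RPM or more without overlap between stages; circles are liver A, squares liver B, blue P1 and orange P8, and an open symbol at 5 RPM marks a liver without a read. By this choice the colours separate in each line, and in several lines the gap between A and B is as wide as that between stages.

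Of the 7 leukocyte microRNAs 2 were lower and 2 higher in both P8 livers, where 27.1% and 13.2% of all tested microRNAs were, and the 2 lower ones were the most abundant of the list. miR-142, found in all blood cell lineages, was at 30979 and 11478 RPM at P1 and 10288 and 6121 RPM at P8, and the myeloid miR-223 at 9818 and 4321 RPM and 2963 and 1893 RPM. The lymphocyte microRNA miR-150 was higher in both P8 livers, from 46.5 and 95.4 RPM in the P1 livers to 163 and 229 RPM in the P8 livers (log2 difference 1.52, SE 0.88), and so was miR-342, from 435 and 341 RPM to 532 and 881 RPM. miR-155, miR-146a and miR-146b overlapped between the stages. The list held 4.31% and 1.67% of the reads at P1 and 1.58% and 0.973% at P8. miR-126, which marks endothelial cells, was even within each stage, with 26231 and 27209.8 RPM at P1 and 64229 and 52854 RPM at P8. Its log2 difference of 1.12 (SE 0.63) was 0.38 when miR-122 reads were kept in the total.

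The let-7 family, which restrains growth genes such as Lin28 and Hmga2 and accumulates as tissues mature, held 8.76% and 20.6% of the reads at P1 and 23.8% and 30.6% at P8. Its mean share was 14.7% ± 8.41 (SD, n = 2) at P1 and 27.2% ± 4.78 (SD, n = 2) at P8. All 11 tested hairpins had a log2 difference above 0, and 3 of them turned below 0 when miR-122 reads were kept in the total. Both P8 livers exceeded both P1 livers for 7 of the 11, where 13.2% of all tested microRNAs did so, and none was lower in both. The 7 include both let-7c hairpins, and let-7f-2 but not its copy let-7f-1, so they are not 7 separate measurements. The median log2 difference was 0.85 against -0.37 over all tested microRNAs, 1.16 against -0.09 with TMM factors, and 0.10 against -1.06 with miR-122 in the total. The log2 ratio of the sum of let-7 family reads was 0.89, 0.29 with miR-122 in the total, 1.64 without P1 B and 0.40 without P1 A.

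Within the family let-7b and let-7c had the widest differences. let-7b was at 1898 and 5971 RPM in the P1 livers and 9763 and 21008 RPM in the P8 livers, with a log2 difference of 2.09 (SE 1.29). The hairpins let-7c-1 on chromosome 16 and let-7c-2 on chromosome 15, which give the same mature RNA, were at 3023 and 9761 RPM and 3044 and 10333 RPM at P1, and at 13583 and 31519.8 RPM and 13969 and 31961 RPM at P8. Reads of their main product cannot tell these hairpins apart, so they stand for 1 measurement. let-7d followed with 6482 and 13346 RPM and 22964 and 26802 RPM, a difference of 1.42. The most abundant form, let-7a-2, was at 24937 and 69469 RPM at P1 and 66344 and 72589 RPM at P8, so that P1 B exceeded P8 A, and its difference of 0.74 turned to -0.01 with miR-122 in the total. let-7i had 6921 and 12092 RPM and 15266 and 17727 RPM, without overlap. let-7f-1 and let-7f-2 again give the same mature RNA and stand for 1 measurement at the edge of separation. let-7f-1 overlapped, at 10278 and 27823 RPM and 27449 and 30704 RPM, while let-7f-2 did not, at 11255 and 28832 RPM and 29035 and 30916 RPM, and the difference of let-7f-2 turned from 0.73 to -0.01 with miR-122 in the total. let-7g had the smallest difference of the family (0.49), with 14012 and 12296 RPM at P1 and 25374 and 13401 RPM at P8.

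The miR-29 family, which targets collagens and other matrix genes, divided by member. miR-29a was at 2334 and 1349.6 RPM in the P1 livers and 6062 and 4195 RPM in the P8 livers, and miR-29c at 930.2 and 449.9 RPM and 1919 and 2285 RPM. These are log2 differences of 1.51 (SE 0.84) and 1.69 (SE 0.89). miR-29b-1 and miR-29b-2, whose hairpins lie 275 and 426 bases from theirs, were at 1848 and 354 RPM and 2329.7 and 232 RPM at P1 and 522 and 163 RPM and 908 and 310.1 RPM at P8. P1 A was the highest of the 4 livers for both, and P1 B lay within or below the P8 livers, so that the stages overlapped. The sum of the 4 hairpins overlapped too, at 7441 and 2386 RPM against 9410.2 and 6954 RPM.

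A similar division was seen among the microRNAs with the seed of miR-16, which act on cyclins and on Bcl2. miR-195 was at 156 and 68.2 RPM at P1 and 788 and 424 RPM at P8, and its neighbour miR-497 at 139.5 and 54.5 RPM and 372 and 179.6 RPM. The log2 difference of miR-195 was 2.47 (SE 0.96), from 37 and 5 reads at P1 to 237 and 26 at P8, and that of miR-497 1.56 (SE 1.08). The far more abundant miR-15b, at 12299 and 15949.6 RPM and 15805 and 9484 RPM, and miR-16-2, at 11124 and 4689 RPM and 11961 and 2824 RPM, overlapped between the stages. Since those members make up most of the seed's reads, the sum over the 6 hairpins was 40585 and 26814 RPM at P1 and 46376 and 16469.97 RPM at P8, with no separation.

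In the miR-30 family, miR-30a stood at 11251 and 8616 RPM at P1 and 29391 and 22248 RPM at P8, a difference of 1.38 (SE 0.68) that stayed above 0 at 0.63 with miR-122 in the total. miR-30d was higher in both P8 livers by 0.68, a difference that turned to -0.06 with miR-122 in the total. miR-30b, miR-30c-1, miR-30c-2 and miR-30e overlapped, among them miR-30b at 7969.9 and 1295 RPM and 4196 and 1289.5 RPM. In the miR-181 family, whose members share a seed and arise in pairs of an a or c form with a b or d form, the b and d forms were lower in both P8 livers while the a and c forms were not. miR-181a-1 was at 1425 and 2236 RPM and 3099 and 2742 RPM, and miR-181b-1, 97 bases from it, at 309 and 245 RPM and 196 and 131 RPM. miR-181c was at 829 and 1213 RPM and 1962 and 1289.5 RPM, and miR-181d, again 97 bases away, at 304 and 245 RPM and 86.5 and 65.3 RPM. miR-181a-2 gives the same mature RNA as miR-181a-1 and stands with it for 1 measurement, which lay at the edge of separation, since miR-181a-2 was at 1302 and 2304 RPM and 3192 and 2302 RPM and just overlapped. miR-181b-2, likewise a copy of miR-181b-1, was lower in both. The sequences of the miR-181 forms were not compared here, so how far reads of 1 form were placed on another is not known. The differences of miR-181a-1 and miR-181c turned to -0.04 and -0.08 on the log2 scale when miR-122 was kept in the total.

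Among the hepatocyte-enriched microRNAs, miR-802 had the widest difference. It was read 12 and 0 times in the P1 livers and 189 and 22 times in the P8 livers, or 50.7 and 0 RPM and 628 and 359 RPM, and 0 reads in P1 B allow up to 40.9 RPM. Its difference on the log2(RPM + 1) scale was 6.05 (SE 1.76), and the ratio of the pooled reads per read of other microRNAs was 15.1 (exact 95% interval 8.44 to 29.6, counting error only). miR-192 was at 5492 and 18622 RPM at P1 and 32144 and 27912 RPM at P8, higher in both P8 livers by 1.57 (SE 0.93). miR-194-2, whose hairpin lies 115 bases from that of miR-192, was at 10946 and 1554 RPM and 5417 and 1224 RPM and overlapped. P1 A was the only 1 of the 4 livers with more of miR-194-2 than of miR-192. miR-148a, miR-101a, miR-101b and miR-22 overlapped as well, miR-22 at 5551 and 232 RPM and 2999 and 424 RPM. The 9 microRNAs of the list together held 6.76% and 3.17% of the reads at P1 and 6.92% and 4.67% at P8.

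miR-137, a microRNA better known from neurons, was found once in P1 A and not in P1 B, and 41 and 10 times in the P8 livers. This made 4.23 and 0 RPM at P1 and 136 and 163 RPM at P8, a ratio of pooled reads of 43.7 with an exact 95% interval of 7.49 to 1758. miR-383 was alike, with 2 and 0 reads at P1 and 29 and 11 at P8 (ratio 17.1, interval 4.44 to 146). Both were named after their values were seen. The neuronal list holds miR-124 and miR-9, and none of its members reached 100 RPM in any of the 4 livers, its sum being 4.23 and 81.8 RPM at P1 and 6.65 and 65.3 RPM at P8. miR-137 was at 4.42 and 2.16 RPM in the E18 livers and at 147, 174, 359.5 and 146 RPM at P12, P17, P21 and P28. In the other direction, miR-499, which lies within the muscle myosin gene Myh7b, was read 43 and 13 times at P1 and 6 and 0 times at P8, with a ratio of P1 to P8 of 10.9 (interval 4.71 to 31.0). The other tested muscle microRNAs overlapped between the stages, with a sum of the list of 228 and 599.8 RPM at P1 and of 36.6 and 669.2 RPM at P8.

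The chr12qF1 cluster lies in the imprinted Dlk1-Dio3 region, is expressed from the maternal chromosome and is a mark of fetal tissues. It held 21.12% and 20.01% of the reads at P1 and 12.3% and 16.7% at P8. Its mean share was 20.6% ± 0.784 (SD, n = 2) at P1 and 14.5% ± 3.16 (SD, n = 2) at P8. Of 49 tested members 25 were lower in both P8 livers and none was higher in both, where 27.1% and 13.2% of all tested microRNAs were. The median log2 difference was -0.97, or -0.66 with TMM factors and -1.71 with miR-122 in the total, against -0.37, -0.09 and -1.06 over all tested microRNAs.

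The members of the cluster ranged widely. miR-495 was at 5962 and 845 RPM at P1 and 199.5 and 147 RPM at P8, a difference of -3.71 (SE 2.76). miR-431 followed with 3488 and 314 RPM and 186 and 65.3 RPM, miR-543 with 2029 and 327 RPM and 126 and 65.3 RPM, and miR-410 with 6444 and 1213 RPM and 791 and 245 RPM. In each of these 4 the P1 A liver stood far above the other 3, and P1 B was also above both P8 livers. The 2 most abundant members did not share this order. miR-376a was at 29820.4 and 76449 RPM at P1 and 42159.8 and 69846 RPM at P8, and miR-127 at 16451 and 33412 RPM and 14082 and 40906 RPM, both with wide overlap and with the B livers highest. The next in level, miR-136 and miR-369, were lower in both P8 livers, miR-136 at 29220.01 and 5685 RPM and 5626 and 3460.5 RPM and miR-369 at 22265 and 9447 RPM and 5230.5 and 5582 RPM. miR-376b followed at 12025 and 11165 RPM and 6454 and 3787 RPM. It differs from miR-376a by G4A in the seed, A13C and G20U. A full-length read of miR-376b thus carries more than the 2 mismatches the authors allowed, while a read that ends before base 20 carries 2. Whether reads of miR-376b were placed on miR-376a was not tested. The sum over the cluster differed by -0.50 on the log2 scale, or by -1.34 with miR-122 in the total.

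**Figure D3:**
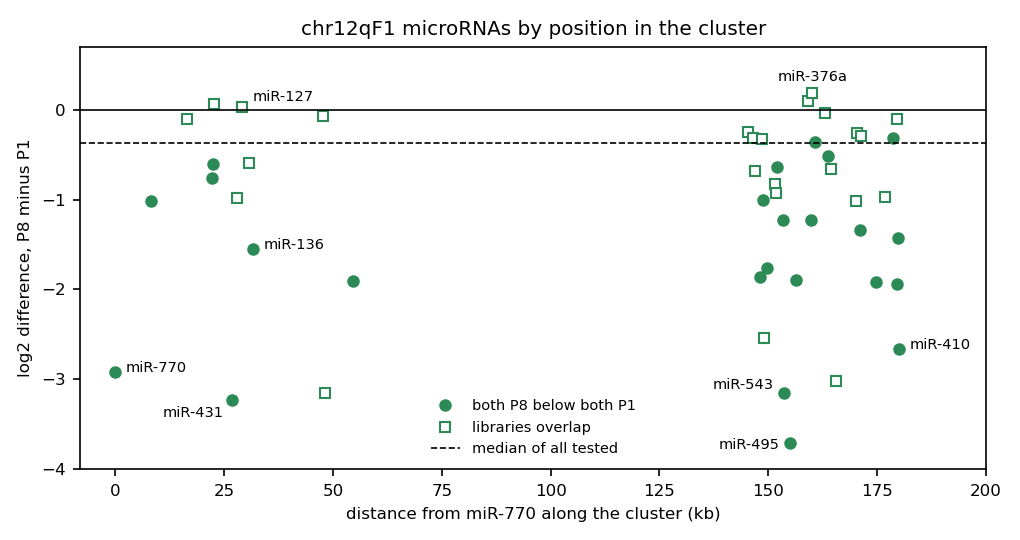
Log2 difference between P8 and P1 (vertical axis) of the tested chr12qF1 microRNAs against their distance from miR-770 in kb; filled circles are members lower in both P8 livers, open squares members whose livers overlap. The dashed line is the median of all tested microRNAs, -0.37; members far below 0 and members near 0 stand side by side on either side of the 90.8 kb gap.

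Members of both kinds stood along the whole cluster. RefSeq places the members in 2 stretches 90.8 kb apart, from miR-770 to miR-370 (54.6 kb) and from miR-379 to miR-410 (34.7 kb). In the first 7 of 14 tested members were lower in both P8 livers, with a median of -0.87, and in the second 17 of 34, with a median of -0.95. miR-431 and miR-127, both on the strand opposite to Rtl1 and within its span, differed by -3.23 and 0.03. At the other imprinted locus the study follows, miR-483 of Igf2 was at 3577 and 9079 RPM at P1 and 3405 and 13124 RPM at P8 and miR-675 of H19 at 389 and 245 RPM and 276 and 588 RPM. Both overlapped, and the log2 ratio of their sum, 0.39, was -0.85 without P8 B and -0.45 with miR-122 in the total. Of the 7 microRNAs of the X-linked miR-322 and miR-503 cluster, those 2 were lower in both P8 livers and the other 5 overlapped, a share near the 27.1% of all tested microRNAs, with miR-503 at 3091 and 2890.02 RPM and 2318 and 1616 RPM and a difference of miR-322 of -0.30 that turned to 0.01 with TMM factors.

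The cluster in an intron of Sfmbt2, an imprinted gene, holds the repetitive miR-297, miR-466, miR-467 and miR-669 families. Of its 36 tested members 21 were lower in both P8 livers and 1, miR-467e, was higher, where 27.1% and 13.2% of all tested microRNAs were. The median log2 difference was -1.42 and, with TMM factors, -1.11, against -0.37 and -0.09 over all tested microRNAs. The sum was 3818 and 2522 RPM at P1 and 1699 and 1355 RPM at P8. Most members rest on few reads: miR-669a-1, the one among the 10 lowest, was read 80 and 15 times at P1 and 40 and 2 times at P8, and miR-669m-1 7 and 1 times at P1 and not at P8, where the 49.0 RPM that 0 reads allow in P8 B leaves its order unsettled. Reads of these near-identical hairpins cannot be assigned firmly to 1 of them.

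The miR-17-92 cluster and its paralogs, which promote proliferation, had 6 of 14 tested members lower in both P8 livers and 1 higher, miR-363, with 6 and 0 reads at P1 and 8 and 2 reads at P8, which the limit of 40.9 RPM in P1 B leaves unsettled, where 27.1% and 13.2% of all tested microRNAs were. miR-18a was at 6997 and 1199.6 RPM at P1 and 981 and 326 RPM at P8 (log2 -2.35, SE 1.89), with P1 B little above P8 A. miR-17, whose hairpin lies 96 bases from it, was at 3716 and 5235 RPM and 3864 and 5468 RPM and overlapped. miR-20a overlapped at 8634 and 2140.2 RPM and 2281 and 881 RPM, while miR-93 inside Mcm7 was at 3873 and 2917 RPM and 2464 and 1779 RPM without overlap. The sum was 52009 and 21253 RPM and 26561 and 14381 RPM, and the stages overlapped. Outside the lists, miR-374 at 359 and 245 RPM and 136 and 32.6 RPM and miR-190 at 219.9 and 109 RPM and 39.9 and 32.6 RPM were among the 10 lowest.

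In the other lists the stages mostly overlapped. Of the miR-99, miR-100 and miR-125 members (6 tested), the 3 miR-125 hairpins were higher in both P8 livers, where 13.2% of all tested microRNAs were, and miR-125b-1 and miR-125b-2 give the same mature RNA and stand for 1 measurement. miR-125b-1 was at 951 and 1977 RPM and 2564 and 2073 RPM, although miR-125a turned to -0.17 with miR-122 in the total. miR-378, linked to energy metabolism, was at 2613 and 1636 RPM and 5882 and 3118 RPM, while miR-33, miR-103 and miR-107 overlapped. miR-21, among the most abundant, was at 67002 and 20435 RPM and 58646 and 23097 RPM with both A livers above both B livers. Of all tested microRNAs 27.1% were lower in both P8 livers. The 6 mesenchymal and stellate microRNAs had 1 member lower in both P8 livers (miR-199b, 1535 and 463 RPM and 432 and 326 RPM) and the 5 of the miR-200 list 1 (miR-200b, 2059 and 2168 RPM and 1935 and 1877 RPM, where the difference of -0.15 turned to 0.16 with TMM factors). In the miR-23, miR-27 and miR-24 clusters (6 tested), the miR-26 family (3) and the miR-34 family (2) each member overlapped. Of 3 tested islet microRNAs 2 overlapped, and miR-216b had 9 and 2 reads in the P1 livers and 1 and 0 in the P8 livers, a ratio of pooled reads of P1 to P8 of 12.8 (exact 95% interval 1.87 to 553, counting error only). Of 4 tested pluripotency microRNAs 3 overlapped, and miR-291a was at 21.1 and 13.6 RPM and 6.65 and 0 RPM. For both, the 49.0 RPM that 0 reads allow in P8 B exceeds the P1 values, so that the order of P8 B and the P1 livers is not settled. Besides the lists, miR-335, an intronic microRNA of the imprinted Mest, was among the 10 most abundant and higher in both P8 livers, at 15386 and 31368 RPM and 38811 and 39224 RPM.

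Hairpins that lie close together are often cut from 1 transcript. Among the 247 tested microRNAs that RefSeq places, there were 97 pairs of adjacent hairpins on 1 strand within 10 kb, 45 of them in chr12qF1. Both members were higher in both P8 livers in 3 pairs, which were miR-497 with miR-195, let-7c-2 with let-7b, and let-7f-2 with miR-98. Both were lower in 12 pairs, of which 8 lie in chr12qF1, miR-144 with miR-451 being among the other 4. Of single tested microRNAs 13.2% were higher and 27.1% lower in both P8 livers, and adjacent pairs share members. For let-7f-1, the copy of let-7f-2, the stages overlapped. The members stood on opposite sides in 2 pairs, both of the miR-181 family, 1 of them with the miR-181a-1 just described. A higher member stood beside an overlapping one in 7 pairs and a lower member beside an overlapping one in 40.

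The direction between P1 and P8 was set beside livers that enter neither side of it, the 2 of E18 before it and the single livers of P12, P17, P21 and P28 after it. Of the 42 microRNAs higher in both P8 livers 28 (66.7%) had a higher mean log2 level at P12 to P28 than at E18, where 22.7% of all tested microRNAs did. All 86 that were lower in both P8 livers were lower there too, where 77.3% of all tested microRNAs were. Among the 14 with the opposite direction were miR-335, miR-342, both higher miR-181 forms and the 3 miR-125 hairpins. The P21 and P28 livers had 25032 and 34265 reads other than miR-122, so that a microRNA without a read there may stand at up to 119.8 and 87.6 RPM, and low microRNAs are pulled towards 0 in them. With P12 and P17 alone, a choice made after the data were seen, 32 of the 42 were higher than at E18 (27.1% of all tested) and 84 of the 86 lower (72.9% of all tested). These 4 later livers are of different ages, and their number at each age allows no estimate of error.

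**Figure D4:**
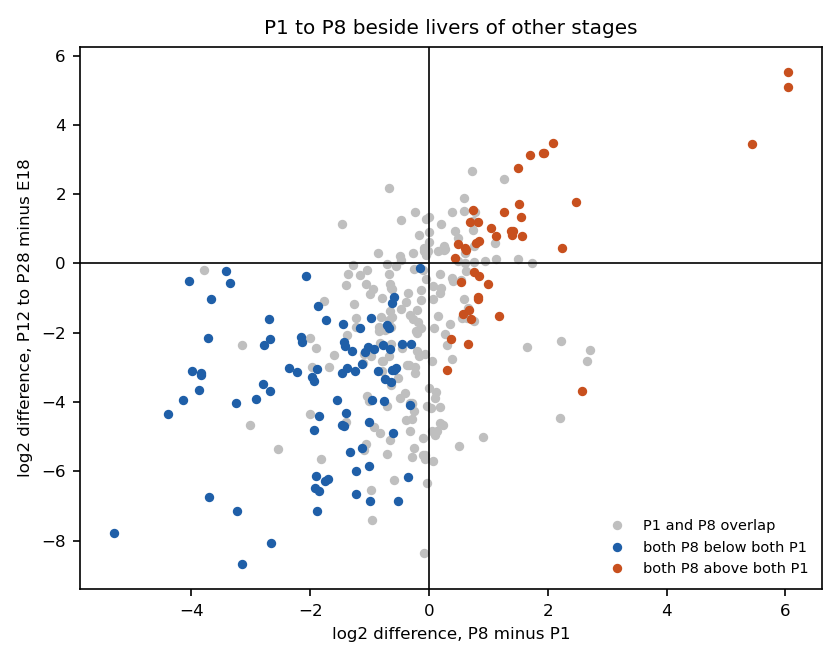
Log2 difference between P12 to P28 and E18 (vertical axis, mean of 4 against mean of 2 livers on the log2(RPM + 1) scale) against that between P8 and P1 (horizontal axis), 1 point for each of the 317 tested microRNAs. The blue points (lower in both P8 livers) all lie below 0 on the vertical axis, while the orange points (higher in both) lie on either side, 28 of 42 above.

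The erythroid share was 16.4% and 7.59% at E18, and 1.498%, 0.551%, 1.466% and 2.393% at P12, P17, P21 and P28, so the low level of the P8 livers was also that of the later livers. The let-7 share was 6.23% and 10.0% at E18 and 25.1%, 33.3%, 41.8% and 9.88% at P12 to P28, with the P28 liver at the level of the E18 livers. chr12qF1 went from 27.2% and 23.4% at E18 to 4.99%, 1.66%, 0.819% and 0.555%. The P8 livers lay between the E18 livers and the P12 liver for this share. miR-126 was at 2.47% and 3.52% at E18 and 6.44%, 5.90%, 5.42% and 3.26% later, and miR-802 at 6.63 and 54.1 RPM at E18 and 621, 2816, 599 and 233 RPM at P12 to P28. miR-499 was at 340.2 and 322 RPM at E18 and 4.08, 0, 0 and 0 RPM later. In the 2 adult livers of P270 the let-7 share was 9.07% and 58.9%, that of miR-126 2.26% and 2.60%, the erythroid share 0.692% and 1.45%, and chr12qF1 was under that of P28 at 0.0458% and 0.0359%. The let-7 shares of these adult livers lay further apart than those of E18, P1 or P8, and their miR-126 shares were below both P1 livers. The listed values of P28 and P270 A sum to less than those of the other livers named here, so their shares may leave out part of the reads. The 95% Wilson intervals of the list shares in the 4 livers compared were at most 0.730 percentage points wide.

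**Figure D5:**
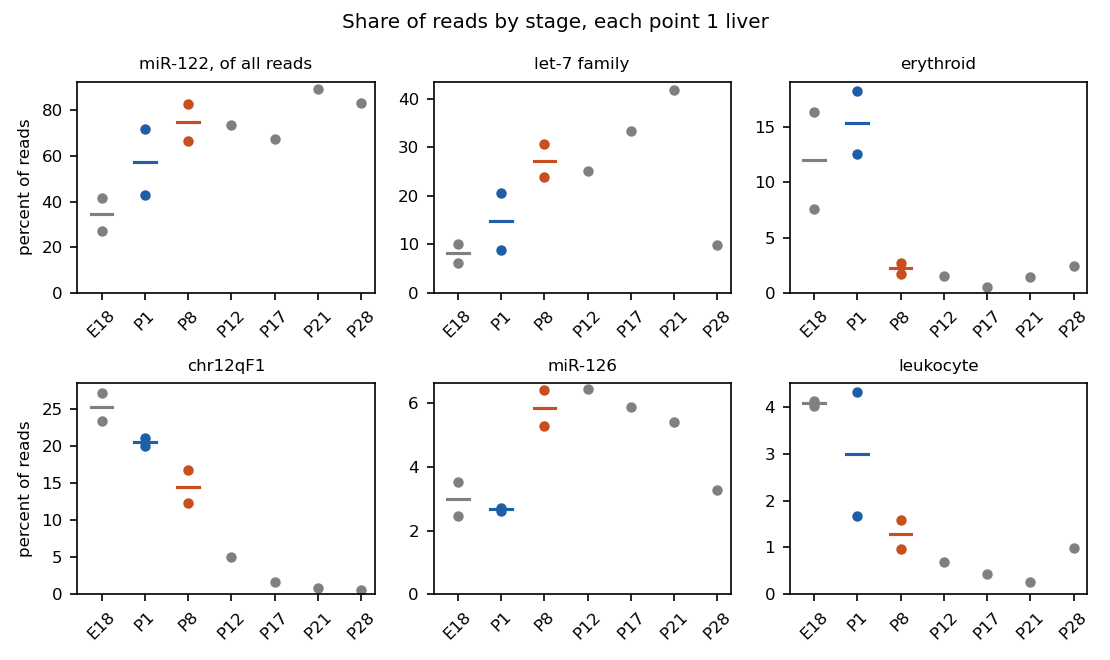
Share of reads (percent, vertical axis) by stage for miR-122 (of all microRNA reads) and for 5 lists or microRNAs (of reads other than miR-122), each point 1 liver and each bar the mean of 2, with P1 in blue and P8 in orange. The erythroid share of both P8 livers is under 3%, as in the later livers, whereas the chr12qF1 share of the P8 livers lies between those of E18 and P12.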

How the data were processed

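Small RNA libraries of snap-frozen livers were made by the authors by ligation, size selection and sequencing on a MiSeq. By the authors, reads were trimmed and aligned to mouse microRNAs of miRBase with Bowtie 0.12.7, allowing 2 mismatches; how reads matching several microRNAs were placed is not given in the sources used here. The deposited values are RPM (reads scaled to a library total) with 1 added. Those listed sum to 517113 to 677316 in E14 A, P28 and P270 A and to 1 higher total in the other wild-type livers. The rescaling below sets every liver to the same total. Whether the part missing from E14 A, P28 and P270 A had the make-up of the listed part was not checked. The added 1 was removed, reads were recovered from the step between low values (whole within 0.1 read for 100% of them in every library), and microRNAs were rescaled to reads other than miR-122, 61263 to 300737 per liver.

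The log2(RPM + 1) values, fitted in limma 3.58.1 (R 4.3.3; contrast P8 minus P1, moderated with a trend), were the basis of each test; differences of low microRNAs depend on the added 1, and where a liver has no read the fitted difference is no measure of the fold. The fit took 10 wild-type livers of E14, E18, P1, P8 and P270 (5 residual degrees of freedom), with 317 microRNAs passing a mean of 10 RPM over P1 and P8. The step was tested on simulated data, where most changes other than the largest tried went uncalled. The limma p-values rest on the spread within all 5 stages, not within P1 and P8 alone. The labels name no litter or batch. The RNA-seq table was not used. The members and lists were chosen with earlier results of these data known. MicroRNAs were named by rule: those past the threshold, the 10 largest differences in each direction among those averaging 100 RPM without overlap, the 10 most abundant, those the study names, and up to 4 of each of 26 lists; miR-137, miR-383, miR-216b, miR-291a and others with few reads, and those named for a neighbour or a shared seed, were chosen after their values were seen. Sequences and positions are from RefSeq (GRCm38.p6), which held 247 of the 317; motifs were not searched. Intervals and permutation tests used scipy 1.17.1 under Python 3.11.15. The alternatives were pseudocounts of 10 and 0.5, other filters and scalings, other sets of livers, a replicate block, hairpins summed, and each liver left out.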

Additional observations from a re-analysis of the deposited data

How the results depend on the processing

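No microRNA was called at an adjusted p of 0.05 in either direction under pseudocounts of 10 or 0.5, without a filter, with a minimum of 50 RPM, under the other scalings, with numbered hairpins summed, with fewer stages, or without any 1 liver (0 to 0 calls higher and 0 to 0 lower), while at an unadjusted p under 0.05 the 12 became 5 without P8 B, 7 without P1 B, 11 without P1 A, 25 without P8 A, 20 with P1 and P8 alone, 43 with E18, P1 and P8, 20 with a pseudocount of 10 and 17 after median centring or without the filter. A further fit held every small RNA group of 2 or 3 livers. It adds miR-122 floxed livers without and with injected Cre, and liver-specific miR-122 knockouts without and with added Cre. In it 2 were called higher (miR-137, 6.04, limma adjusted p 9.3e-05, and miR-802, 6.05, adjusted p 0.0197) and 1 lower (miR-216b, -3.998, adjusted p 0.00344). The SE of miR-216b was 0.76 there and 1.48 in the main fit. miR-137 and miR-216b passed the filter through the stage where they were high. The order of miR-216b stays unsettled, since 0 reads in P8 B allow up to 49.0 RPM. Livers of 1 letter deviated together between the stages (correlation over 317 microRNAs 0.463 for P1 and P8, from 0.123 to 0.495 over 10 pairs of stages), but the labels give the letters no meaning and each stage has 2 letters, too few for the letters to be taken as pairs; with the replicate block there were 0 calls higher and 0 lower and 24 at an unadjusted p under 0.05. Within a letter, miR-122 per other read was higher at P8 in both (0.754 and 1.99 in A, 2.53 and 4.83 in B). Of the 317 microRNAs 76 were higher and 147 lower at P8 within both letters, a comparison chosen after seeing the data. Many whose stages overlap thus have 1 sign in both letters.

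The miR-122 log2 ratio of reads per other read was 1.05 and ranged from 0.27 to 2.18 with 1 liver left out. The chr12qF1 sum moved from -0.50 to -1.34 with miR-122 in the total, and ranged from -0.74 to -0.30 with 1 liver left out. The Igf2-H19 sum ranged from -0.85 to 1.13. Of 104 named microRNAs that were tested, 25 changed sign with miR-122 in the total, 15 with TMM factors, 19 with median centring and 10 to 29 with 1 liver left out. The counts of 0 say nothing about stability in a design of this size. Count models on the recovered reads were not run. Depth limits microRNAs under about 50 RPM, which are 3 reads or fewer in P8 B.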
